A study of Mus musculus with 8 samples.

Results

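Pcdh7, Pcdh9, Pcdh10, Pcdh17, Pcdh19, Cntn1, Cntn3, Cntn4 and Cntn5 are genes of the non-clustered protocadherins and the contactins, and their transcripts were followed across the stellate ganglionic neurons (SGNs) of the mouse. The 9 genes were picked by name out of 19224 measured genes, because of their levels in the neuronal subtypes of these same data. Differences between subtypes are therefore given for them as a description, with no p-value. The stellate ganglia hold the sympathetic neurons that supply the heart and the front limbs. Male C57BL6/J mice of 8 to 10 weeks received an adeno-associated virus (AAV) with GFP in the heart and an AAV with tdTomato in the front paws, the left and right ganglia were combined for digestion, and single cells were sequenced with the 10x Genomics system. All mice had the same treatment, so the groups compared are the 8 neuronal subtypes named by the authors, which are NA1a, NA1b, NA1c, NA2 and NA3 (noradrenergic), Ach1 and Ach2 (cholinergic) and Glut (glutamatergic). A level is the mean number of unique molecular identifiers (UMIs, each a captured RNA molecule) per 10000 UMIs of a neuron.

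Protocadherins are single-pass membrane proteins whose extracellular cadherin repeats bind the same protocadherin on a neighbouring cell. The non-clustered ones lie at separate places in the genome, unlike the clustered protocadherin genes, and they are known for roles in axon growth, axon sorting and synapse specificity. Contactins are immunoglobulin-domain proteins held in the membrane by a lipid anchor. They pair in the same membrane with contactin-associated proteins and bind L1 family proteins, amyloid precursor proteins and receptor tyrosine phosphatases, and they are known from nodes of Ranvier and from the wiring of sensory circuits.

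Of 1303 neurons, 1002 carried 1 of 5 mouse names that each match 1 sample, and these mice are replicates 1 to 5. The 301 neurons of 3 other names were used only where neurons of all names are pooled. Replicates 1 to 5 all belong to batch 2 of the study, and the paper lists its other 3 mice in batch 1. The labels alone do not place the 3 other names, so that batch and mouse name cannot be told apart between them. Each of replicates 1 to 5 had 165 to 235 neurons and 916296 to 1196621 UMIs. The median number of UMIs per neuron over all mice was 6524.5 in NA1a, 3252 in NA1b, 2685 in NA1c, 2461 in NA2 and 6773 in NA3, so that a share of neurons with a UMI depends on the subtype's depth. The Ach1 and Glut names rest on few transcripts. Chat was at 0 in Ach1, where 4 cholinergic markers summed to 4.78 UMIs per 10000 against 89.9 in Ach2, and Slc17a6 was at 0.554 in Glut. Transcripts of satellite glia, summed over 10 markers, were at 270 UMIs per 10000 in NA3 and 111 in Ach1, against 4.12 to 14.6 in the other subtypes.

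A set of 21 cell barcodes occurred in 2 to 5 of the 5 libraries, and 20 of these barcodes had 1 subtype in every library. They belong to 73 neurons, of which 55 were among the 150 NA2 neurons of replicates 1 to 5, 15 among the 46 Ach2 neurons and 3 among the 17 Glut neurons. NA1a, NA1b, NA1c, NA3 and Ach1 had none. The differences of NA2 and the main shares of Ach2 and Glut are therefore given with and without these neurons.

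Pcdh7, Pcdh9, Pcdh10 and Cntn5 were high in NA1a and NA1c and low in NA1b in every mouse. Compared with NA1b, NA1a had 7.23-fold more Pcdh7, 3.18-fold more Pcdh9, 6.96-fold more Pcdh10 and 7.63-fold more Cntn5 on the scale of log2 of the level plus 0.1. None of the 4 genes passed the threshold between NA1a and NA1c. Pcdh7, Pcdh9 and Pcdh10 are delta-protocadherins, and Cntn5 is the contactin also called NB-2. Their promoters are shown because these 4 genes passed the threshold as lower in NA1b than in both NA1a and NA1c. Each run holds the bases just before the transcription start that lies farthest upstream in RefSeq, 5′ to 3′ on the strand of the gene in build GRCm38.p6, and capitals mark CG dinucleotides. For Pcdh7 the run instead ends where the gene starts in the GENCODE annotation of GRCm38, which lies upstream of the RefSeq start.
Pcdh7, chr5:57717831-57717966, plus strand: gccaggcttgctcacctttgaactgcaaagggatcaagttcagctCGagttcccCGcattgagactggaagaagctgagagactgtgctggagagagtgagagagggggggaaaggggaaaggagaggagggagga
Pcdh9, chr14:93890680-93890929, minus strand: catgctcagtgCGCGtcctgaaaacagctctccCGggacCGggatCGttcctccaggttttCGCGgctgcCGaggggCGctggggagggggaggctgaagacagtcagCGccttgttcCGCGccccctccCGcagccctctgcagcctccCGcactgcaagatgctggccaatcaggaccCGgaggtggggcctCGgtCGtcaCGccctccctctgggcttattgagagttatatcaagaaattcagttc
Pcdh10, chr3:45378148-45378397, plus strand: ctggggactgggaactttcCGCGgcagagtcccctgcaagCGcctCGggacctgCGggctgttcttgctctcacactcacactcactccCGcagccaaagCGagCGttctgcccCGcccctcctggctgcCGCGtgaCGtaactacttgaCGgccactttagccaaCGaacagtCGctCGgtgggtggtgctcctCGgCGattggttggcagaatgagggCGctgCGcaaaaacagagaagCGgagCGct
Cntn5, chr9:10904776-10905025, minus strand: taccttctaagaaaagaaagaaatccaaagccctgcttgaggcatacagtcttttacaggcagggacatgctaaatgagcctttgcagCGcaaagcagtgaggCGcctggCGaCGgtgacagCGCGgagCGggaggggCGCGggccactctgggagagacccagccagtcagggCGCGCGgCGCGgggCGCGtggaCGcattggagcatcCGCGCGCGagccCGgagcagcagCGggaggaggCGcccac

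The 250 bases before the start held 18 CG dinucleotides in Pcdh9, 22 in Pcdh10 and 24 in Cntn5, against 7 in Pcdh7 and a median of 6 over 27025 promoters. Pcdh9, Pcdh10 and Cntn5 had more CG dinucleotides than 78.4%, 85.4% and 88.3% of all promoters. Many CG dinucleotides were not particular to these genes, since Pcdh17 had 21 (more than 83.9% of promoters) and Pcdh19 had 16 (74.5%). Cntn1 had 7, Cntn4 had 2 and Cntn3 had 0. The Pcdh7 window reaches into the gene as GENCODE gives it, and the 136 bases shown above hold 2 of its 7 CG dinucleotides. The motif CANNTG, read on both strands, the core of sites for basic helix-loop-helix factors such as Hand2, occurred in 66.1% of all promoters and in none of these 4 windows. The motif TAATTA occurred in 4.91% of all promoters and TATAAA in 13.0%, also on both strands, and neither was found in the 4 windows. GGGCGG occurred in 33.0% of all promoters and 1 time each in those of Pcdh10, Pcdh17 and Pcdh19. All 9 genes matched an entry in RefSeq, and among the other 5 genes CANNTG was found in the windows of Pcdh19 (1 match), Cntn3 (1 match) and Cntn4 (4 matches). The windows of Cntn3 (102464668 to 102464917) and Cntn4 (106118515 to 106118764) lie inside the genes as GENCODE gives them, so they are not windows before the annotated gene start.

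Pcdh7 lies on chromosome 5 (57717967 to 58133230, plus strand). Its level in replicates 1 to 5 was 3.44, 1.99, 3.25, 4.02 and 4.89 UMIs per 10000 in NA1a. It was 0.775, 0.429, 0.0518, 0.483 and 0.530 in NA1b, and 1.88, 2.66, 3.68, 3.46 and 3.31 in NA1c. The highest NA1b value lay below the lowest values of both other subtypes. The log2 difference was 2.85 ± 0.41 (SE, n = 5 mice) between NA1a and NA1b and -2.65 ± 0.41 between NA1b and NA1c, with the same direction in 5 of 5 mice. Between NA1a and NA1c it was 0.20 ± 0.41, with NA1a higher in 3 of 5 mice, and the values of these subtypes overlapped. In order, the mean levels were 3.52 ± 1.07 (SD) in NA1a, 3.00 ± 0.731 in NA1c, 1.71 ± 0.481 in NA3 (n = 3 mice), 0.613 ± 0.623 in NA2 and 0.454 ± 0.261 in NA1b. Each of these subtypes overlapped with its neighbours in the order.

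Pcdh9, a gene of 877.3 kb on chromosome 14 (93013410 to 93890679, minus strand), had levels of 1.82, 1.85, 3.55, 3.54 and 2.57 UMIs per 10000 in NA1a of replicates 1 to 5. They were 0.915, 0.725, 0.516, 0.789 and 0.783 in NA1b, and 2.09, 2.93, 3.87, 2.65 and 2.69 in NA1c. NA1b was again below both without overlap, and its 5 mice differed little among themselves. The log2 difference was 1.67 ± 0.27 (SE, n = 5 mice) between NA1a and NA1b and -1.79 ± 0.27 between NA1b and NA1c. NA1c was higher than NA1a in 4 of 5 mice, by a log2 difference that stayed within its error (NA1a minus NA1c, -0.12 ± 0.27). NA3 had 0.892 ± 0.110 (SD, n = 3 mice) and NA2 0.612 ± 0.334 (0.871 ± 0.277 in 4 mice without shared barcodes), both overlapping with NA1b when all neurons are used.

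Pcdh10 lies on chromosome 3 (45378398 to 45435623, plus strand), and its protein binds the WAVE complex that drives actin assembly in growing axons. Its level was 1.85, 1.40, 2.01, 2.90 and 3.44 UMIs per 10000 in NA1a of replicates 1 to 5. It was 0.494, 0.181, 0.0745, 0.259 and 0.284 in NA1b, and 1.68, 1.95, 1.81, 1.78 and 1.28 in NA1c. The 5 NA1b values were the lowest of the 15, and NA1c varied less among mice (SD 0.252) than NA1a (SD 0.828). The log2 difference was 2.80 ± 0.30 (SE, n = 5 mice) between NA1a and NA1b, -2.43 ± 0.30 between NA1b and NA1c and 0.37 ± 0.30 between NA1a and NA1c. Unlike Pcdh7 and Pcdh9, Pcdh10 was also higher in NA2 (0.923 ± 0.276, SD, lowest mouse 0.686) than in NA1b, without overlap at own depth. Without shared barcodes the NA2 level was 1.15 ± 0.490 (4 mice), and in thinned neurons the ranges overlapped, with the lowest NA2 mouse at 0.312 and the highest NA1b mouse at 0.405. NA3 had 1.32 ± 0.513 (SD, n = 3 mice).

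Cntn5 spans 1243.9 kb of chromosome 9 (9660891 to 10904775, minus strand). Its level was 2.78, 2.71, 2.44, 1.17 and 3.26 UMIs per 10000 in NA1a of replicates 1 to 5. It was 0.147, 0.551, 0.205, 0.391 and 0.0412 in NA1b, and 0.764, 1.65, 1.57, 1.11 and 2.75 in NA1c. NA1b did not overlap with either subtype, and NA1a was higher than NA1c in 5 of 5 mice while their ranges overlapped. The log2 difference was 2.93 ± 0.45 (SE, n = 5 mice) between NA1a and NA1b, -2.27 ± 0.45 between NA1b and NA1c and 0.67 ± 0.45 between NA1a and NA1c. Without replicate 5 the NA1b and NA1c difference was -1.75 ± 0.47 and no longer passed the threshold.

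Cntn3, on chromosome 6 (102162655 to 102573101, minus strand), was also lowest in NA1b among NA1a, NA1b and NA1c, with a smaller difference. Its level was lower still in NA2 (0.428 ± 0.267, SD) and NA3 (0.554 ± 0.384). Its level was 1.70, 1.66, 1.67, 1.81 and 3.64 UMIs per 10000 in NA1a, 0.636, 0.945, 0.637, 1.19 and 1.62 in NA1b, and 1.20, 1.29, 1.36, 2.00 and 2.22 in NA1c. NA1a and NA1b did not overlap, and NA1c overlapped with both. The log2 difference between NA1a and NA1b was 1.00 ± 0.32 (SE, higher in 5 of 5 mice) and that between NA1b and NA1c -0.67 ± 0.32 (lower in 5 of 5), and neither passed the threshold. Both passed when only the NA1 subtypes were fitted. The NA1a and NA1b difference also passed with a pseudocount of 1, with profiles centred on their median gene, without shared barcodes and without replicate 2. Cntn1, on chromosome 15 (92051165 to 92341967, plus strand) and known from nodes of Ranvier, was at 0.835 ± 0.286 (SD) in NA1a, 0.975 ± 0.190 in NA1b and 0.916 ± 0.149 in NA1c, with log2 differences between -0.24 and 0.07. The 3 subtypes overlapped for Cntn1 and none of its differences passed the threshold, which does not show that the levels are alike.

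**Figure D1:**
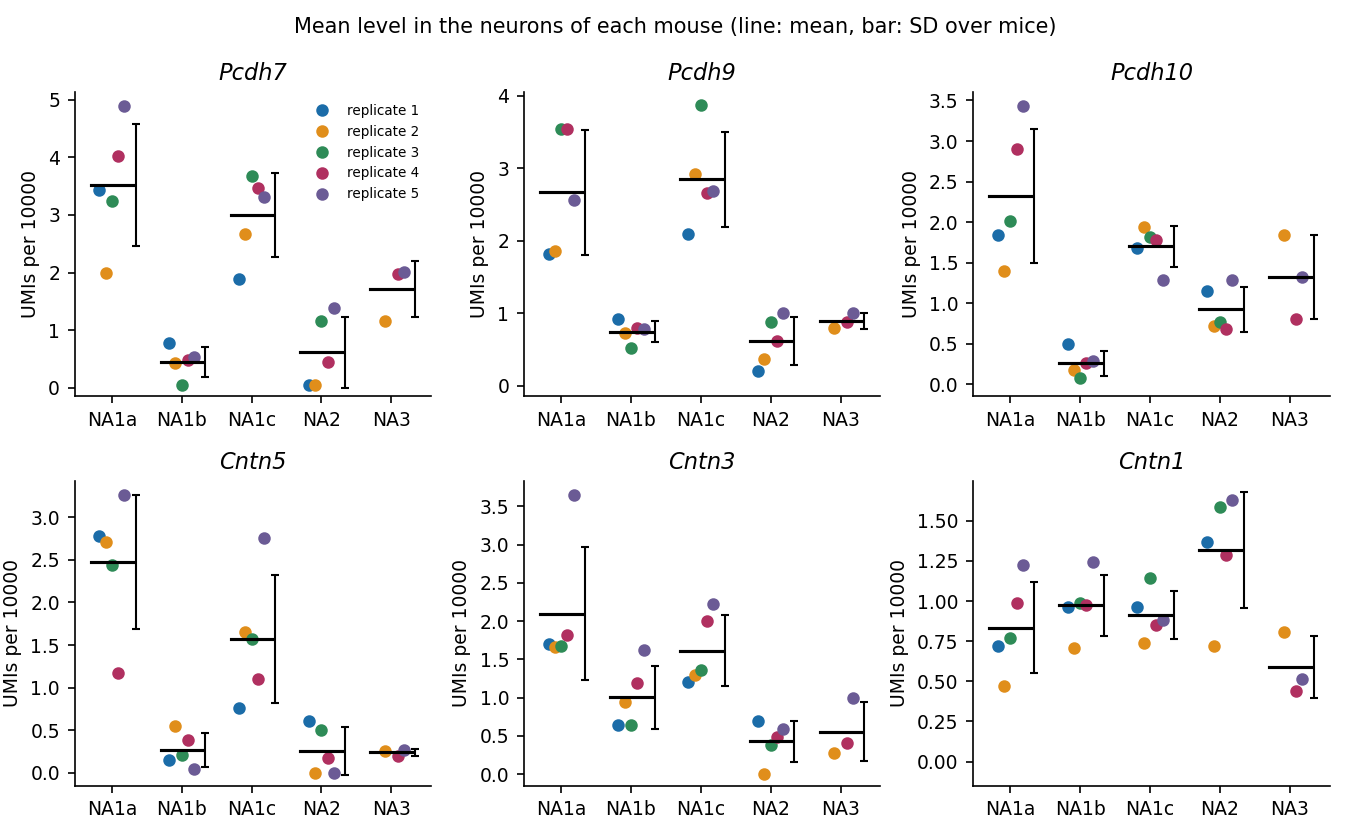
Level of the 6 genes that passed the filter on low values (y axis, UMIs per 10000) in 5 subtypes (x axis), 1 point per mouse with at least 10 neurons, colored by replicate, with the mean (line) and SD (bar) over mice. For Pcdh7, Pcdh9, Pcdh10 and Cntn5 the NA1b points lie below all NA1a and NA1c points, while for Cntn1 the subtypes overlap.

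Of the 9 genes, 6 passed the filter on low values and were fitted together with 6185 genes in 1 limma model over mice. Between NA1a and NA1b, 4 of the 6 were past the threshold, an adjusted p below 0.05, and all were higher in NA1a, where 4.14% of all genes were past it in either direction, 2.67% higher and 1.47% lower. Between NA1b and NA1c, 4 of 6 were past it, all lower in NA1b, against 1.54% of all genes, 0.469% higher and 1.07% lower. Between NA1a and NA1c, 0 of 6 were past it, against 5.68% of all genes, 3.93% higher and 1.75% lower. Since the genes were chosen on these contrasts, nothing is read from these counts. Pcdh17, Pcdh19 and Cntn4 had too few UMIs to be fitted.

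**Figure D2:**
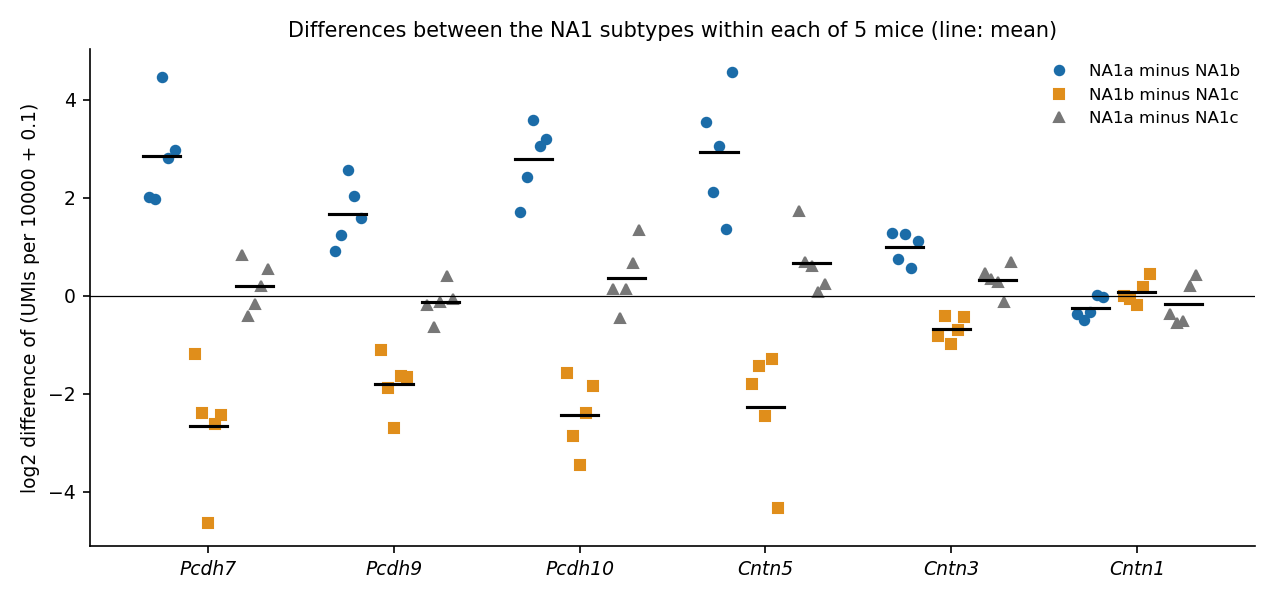
Differences within each mouse on the scale of log2(UMIs per 10000 + 0.1) (y axis) for the 6 fitted genes (x axis), with 1 point per mouse and the mean as a line. The NA1a minus NA1b points of Pcdh7, Pcdh9, Pcdh10, Cntn5 and Cntn3 lie above 0 in all 5 mice and the NA1b minus NA1c points below 0, and those of NA1a minus NA1c scatter about 0 except for Cntn5.

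NA1a had a higher median of UMIs per neuron than NA1b and NA1c. The shares of neurons with a UMI were therefore also taken after each neuron was thinned to 2000 UMIs. At own depth, the share of neurons holding Pcdh7 averaged 79.99% ± 7.36 in NA1a (SD over 5 mice), 14.1% ± 8.60 in NA1b and 55.0% ± 13.3 in NA1c. After thinning the shares were 53.6% ± 14.6, 6.12% ± 3.10 and 41.1% ± 10.8. The share in NA1c rose relative to that in NA1a, and that in NA1b stayed lowest. For Pcdh9 the order of NA1a and NA1c turned, from 72.3% ± 7.77 and 58.2% ± 12.4 at own depth to 35.9% ± 13.4 and 45.5% ± 13.0 after thinning, within the spread of the mice. Pcdh10 was found after thinning in 30.5% ± 6.48 of NA1a, 6.29% ± 1.92 of NA1b and 27.3% ± 6.52 of NA1c neurons. Cntn5 was found in 21.5% ± 7.57, 3.47% ± 3.50 and 16.7% ± 7.22. Cntn1 had 14.0% ± 3.87, 18.1% ± 1.37 and 15.3% ± 6.74, so that its higher share in NA1a at own depth, 41.6% ± 9.96, was not seen at equal depth. In thinned neurons the log2 differences between NA1a and NA1b were 2.81 for Pcdh7, 1.58 for Pcdh9, 2.33 for Pcdh10 and 3.15 for Cntn5, and that of Pcdh9 did not pass the threshold. With a pseudocount of 1 in place of 0.1 the differences were smaller, at 1.62, 1.04, 1.37 and 1.43, and all 4 passed it.

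**Figure D3:**
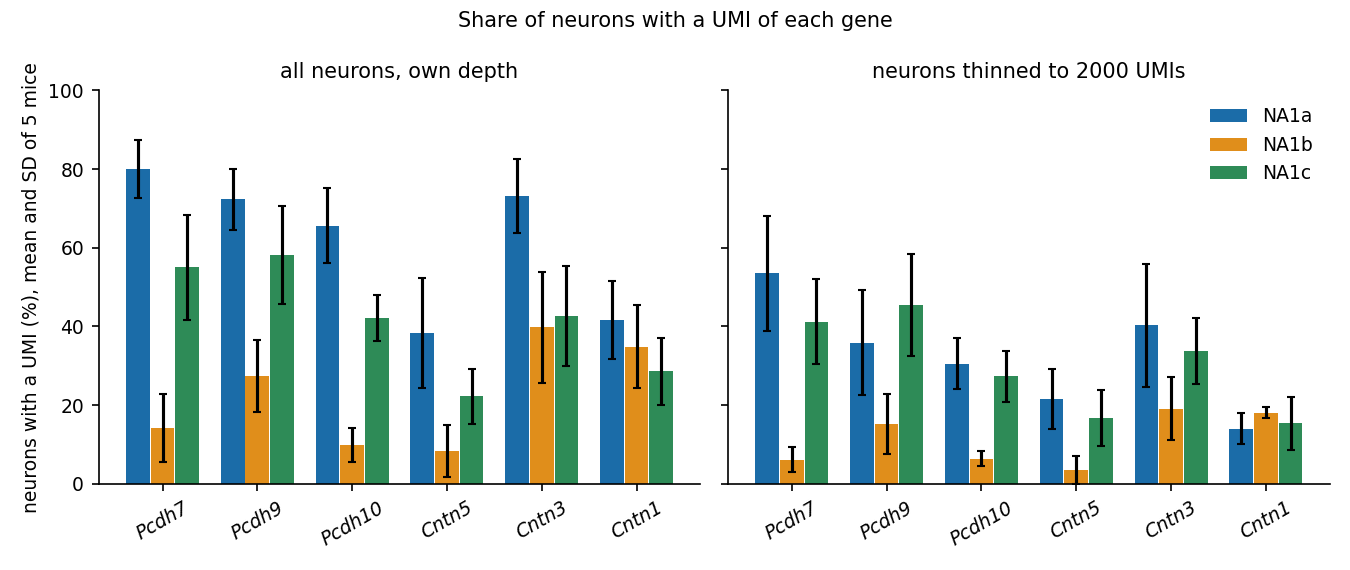
Neurons with a UMI of each gene (y axis, % of the neurons of a mouse, mean and SD of 5 mice) in NA1a, NA1b and NA1c, at own depth (left) and thinned to 2000 UMIs (right). The bars of Pcdh7, Pcdh9, Pcdh10 and Cntn5 in NA1b are the lowest in both panels, and those of NA1a and NA1c lie closer together on the right.

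Many NA1a neurons held several of these transcripts at once. The 5 genes counted were picked as high in NA1a and NA1c, so lower counts in NA1b follow from the choice. The counts were not set against those expected from each gene's share, so joint expression was not tested. Of Pcdh7, Pcdh9, Pcdh10, Cntn3 and Cntn5, a neuron had 3 or more in 75.1% ± 3.87 (SD, n = 5 mice) of NA1a, 37.8% ± 11.7 of NA1c and 9.01% ± 2.94 of NA1b neurons. All 5 were found in 35 of 182 NA1a neurons, 13 of 216 NA1c neurons and 0 of 237 NA1b neurons (a count of 0 leaves room for shares below 1.27%). None of the 5 was found in 6 of the NA1a, 24 of the NA1c and 90 of the NA1b neurons. After thinning, 3 or more were found in 30.2% ± 9.28 of NA1a, 21.9% ± 5.68 of NA1c and 1.80% ± 1.68 of NA1b neurons.

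**Figure D4:**
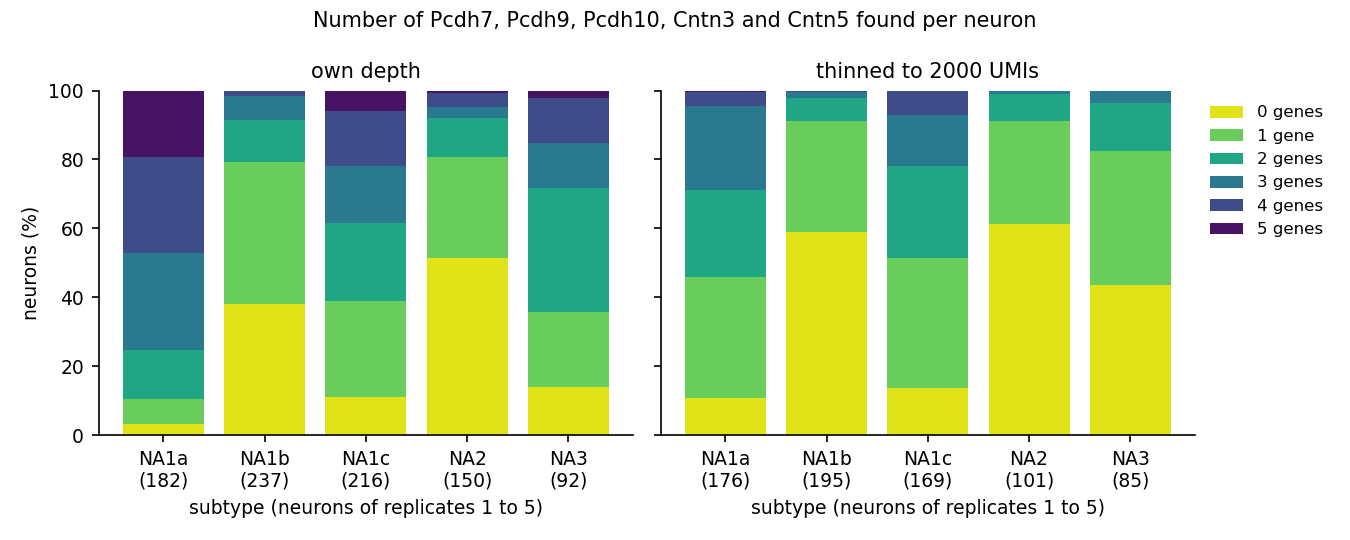
Neurons of replicates 1 to 5 (y axis, %) by how many of Pcdh7, Pcdh9, Pcdh10, Cntn3 and Cntn5 they held, in 5 subtypes (x axis, with the number of neurons), at own depth (left) and thinned to 2000 UMIs (right). The share with none of the 5 genes is smallest in NA1a and NA1c in both panels and largest in NA1b and NA2.

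Among the neurons of NA1a and of NA1c, Cntn5 was spread more unevenly than the protocadherins, and NA1b had too few UMIs of Cntn5 for the ratio in more than 1 mouse. In NA1a of replicates 1 to 5, 29 neurons with 5 or more UMIs held 80.9% of the 376 UMIs of Cntn5, and 116 of the 182 neurons had none. For Pcdh7, 47 such neurons held 58.8% of 566 UMIs, and for Cntn3, 11 neurons held 20.3% of 305 UMIs. At 2000 UMIs per neuron the variance of Cntn5 was 2.16 ± 0.723 (SD, n = 5 mice) times its mean in NA1a and 1.98 ± 0.382 times in NA1c. The same ratio in NA1a was 1.15 ± 0.272 for Pcdh7, 1.17 ± 0.278 for Pcdh9, 1.13 ± 0.194 for Pcdh10 and 0.860 ± 0.221 for Cntn3. The highest count of Cntn5 in these neurons was 28 UMIs.

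NA2 and NA3 were compared with the mean of NA1a, NA1b and NA1c, where the median of all genes was itself lower, by a log2 difference of -0.26 in both. In NA2, 4 of the 6 genes were lower past the threshold, against 64.0% of all genes in either direction, 24.9% higher and 39.1% lower. Relative to the median gene the log2 difference was -1.63 for Pcdh7, -1.27 for Pcdh9, -1.57 for Cntn3 and -1.77 for Cntn5. It was 0.10 for Pcdh10 and 0.74 for Cntn1, of which neither passed, although Cntn1 was higher in 5 of 5 mice and passed when profiles were centred on their median gene. In thinned neurons the difference of Cntn1, before subtracting the median gene, was -0.09 in place of 0.48. The level of Cntn5 in NA2 of replicates 1 to 5 was 0.613, 0, 0.502, 0.180 and 0 UMIs per 10000, and that of Pcdh7 was 0.0424, 0.0490, 1.15, 0.440 and 1.38. Mice therefore differed widely in NA2 for both genes. Without the neurons of shared barcodes, 4 mice had 10 or more NA2 neurons, and the levels were 0.910 ± 0.704 (SD) for Pcdh7, against 0.613 ± 0.623 with them, and 0.390 ± 0.319 for Cntn5, against 0.259 ± 0.285. The log2 differences before subtracting the median gene were -1.23 for Pcdh7 (-1.89 with them), -1.02 for Pcdh9 (-1.53), -1.47 for Cntn3 (-1.83) and -1.41 for Cntn5 (-2.03), and the same 4 genes passed.

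In NA3, 3 of the 6 genes were lower past the threshold, against 27.8% of all genes in either direction, 10.2% higher and 17.6% lower. Relative to the median gene the log2 difference was -0.70 for Pcdh9, -1.21 for Cntn3 and -1.25 for Cntn5 (n = 3 mice). For Pcdh7 it was 0.19, for Pcdh10 0.54 and for Cntn1 -0.24. The difference of Pcdh10 before subtracting the median gene changed sign with depth, from 0.27 ± 0.31 (SE) to -1.18 ± 0.49 in thinned neurons, and passed the threshold in neither. That of Cntn1 was -0.51 ± 0.28 and did not pass. It passed as lower in thinned neurons (-1.62 ± 0.48) and without replicate 2 (-0.93 ± 0.32). The level of Cntn5 was 0.254, 0.193 and 0.271 UMIs per 10000 in replicates 2, 4 and 5, of Cntn3 0.271, 0.401 and 0.992 and of Pcdh7 1.16, 1.97 and 2.01. The call of Cntn5 was lost in 5 alternatives (without replicate 2, without replicate 4, in thinned neurons, with no filter and with summed UMIs), and that of Pcdh9 without replicate 4. Of the satellite glia markers, 9 of 9 tested were higher in NA3 and the 8 sympathetic neuron markers were lower, and their part in these differences was not tested.

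The cholinergic and glutamatergic subtypes had few neurons, so shares are pooled over all mice, with exact Clopper-Pearson 95% intervals that cover counting error only. Pcdh17 lies on chromosome 14 (84443563 to 84539002, plus strand) and was found in 32.3% of Ach2 neurons (20 of 62, 95% interval 20.9% to 45.3%), at a median depth of 4414.5 UMIs per neuron of Ach2. It was found in 1.71% of NA2 neurons (3 of 175) at a median depth of 2461, in 4.43% of NA1a neurons (14 of 316) at 6524.5, and in 22.2% of NA3 neurons (22 of 99, 95% interval 14.5% to 31.7%) at 6773. The intervals of Ach2 and NA3 overlapped. NA1a and NA3 both had a higher median of UMIs per neuron than Ach2. After thinning the share was 18.5% in Ach2 (10 of 54), 6.67% in NA3 (6 of 90) and 24.1% in Glut (7 of 29). Ach2 was therefore highest at own depth only. The level in Ach2 was 0.923, 1.02, 0.977, 0.662 and 0.714 UMIs per 10000 in replicates 1 to 5, from 13, 5, 6, 17 and 5 neurons. These neurons include those with shared barcodes, so the values are not a measure of steadiness over mice. Without shared barcodes Pcdh17 was found in 15 of 47 Ach2 neurons, and the pooled level over all names was 0.782 in place of 0.961. In replicates 1 to 5 alone it was then found in 7 of 31 Ach2 neurons, in place of 12 of 46. The pooled level of these replicates was 0.482 in place of 0.821. In Glut it was found in 10 of 37 neurons, of which 1 of 17 came from replicates 1 to 5 and 9 of 20 from the unmatched names. Pcdh17 is also known from endothelial cells. Of 6 endothelial markers, 4 were at 0 in Ach2 and 5 in Glut. Their sum was 0.364 UMIs per 10000 in Ach2, of which Egfl7 made 0.313, against 0.602 to 1.83 in the other subtypes. Any part of endothelial transcripts in the Pcdh17 values was not tested.

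Cntn1 had opposite levels in Ach2 and Glut. It was found in 3 of 62 Ach2 neurons (4.84%, 95% interval 1.01% to 13.5%) and in 23 of 37 Glut neurons (62.2%, 44.8% to 77.5%), against 25.0% to 38.3% in the other subtypes. The level was 3.19 UMIs per 10000 in Glut and 0.0663 in Ach2. Glut was the shallower of the 2 subtypes, with a median of 3285 UMIs per neuron. Without shared barcodes Cntn1 was found in 3 of 47 Ach2 and 21 of 34 Glut neurons. In Glut it was found in 9 of 17 neurons of replicates 1 to 5 and in 14 of 20 of the unmatched names. The mice with 5 or more Glut neurons differed, with a level of 4.43 UMIs per 10000 in replicate 4 and 0.659 in replicate 5.

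Cntn5 and Cntn3 were both found in Ach2. Cntn5 was found in 13 of 62 Ach2 neurons, with a median of 10.7 UMIs per 10000 in those neurons, against 5.10 in the 139 NA1a neurons that had it and 1 positive neuron of 37 in Glut. None of the 15 Ach2 neurons with a shared barcode had Cntn5, so that without them the share was 27.7%, against 21.0% with them. By mouse, the Ach2 level of Cntn5 was 0.621, 0, 1.84, 3.51 and 7.35 UMIs per 10000. Cntn3 was found in 9 of the 13 Ach2 neurons with Cntn5 and in 19 of the 49 without it, or 19 of 34 when the 15 neurons with a shared barcode are left out of the latter. Vip, a neuropeptide of cholinergic sympathetic neurons, was at a mean of 23.6 UMIs per 10000 in the 13 neurons and 101 in the 49 (102 in the 34), and Pcdh17 was found in 2 of the 13 and 18 of the 49 (13 of the 34). The 13 had a median of 5143 UMIs per neuron, the 49 a median of 3426 and the 34 a median of 6032. These groups of Ach2 neurons were formed from the data and were not compared over mice.

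Pcdh19, a delta-protocadherin gene of the X chromosome (133582860 to 133688987, minus strand), and Cntn4, on chromosome 6 (105677660 to 106699310, plus strand) and known from olfactory wiring, were close to the limit of detection. Pcdh19 was found in 0.633% (NA1a) to 7.81% (Ach1, 5 of 64) of the neurons of a subtype, and no neuron had more than 1 UMI of it. No UMI of Cntn4 was seen among the 316 neurons of NA1a (a count of 0 leaves room for shares below 0.949%), whereas 5 of 62 Ach2 neurons had one (8.06%, 95% interval 2.67% to 17.8%). Of the 7 UMIs of Cntn4 in NA1b of replicates 1 to 5, 6 came from 1 neuron. A lower level of these genes than of the others is not stated, since levels are compared within a gene.

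**Figure D5:**
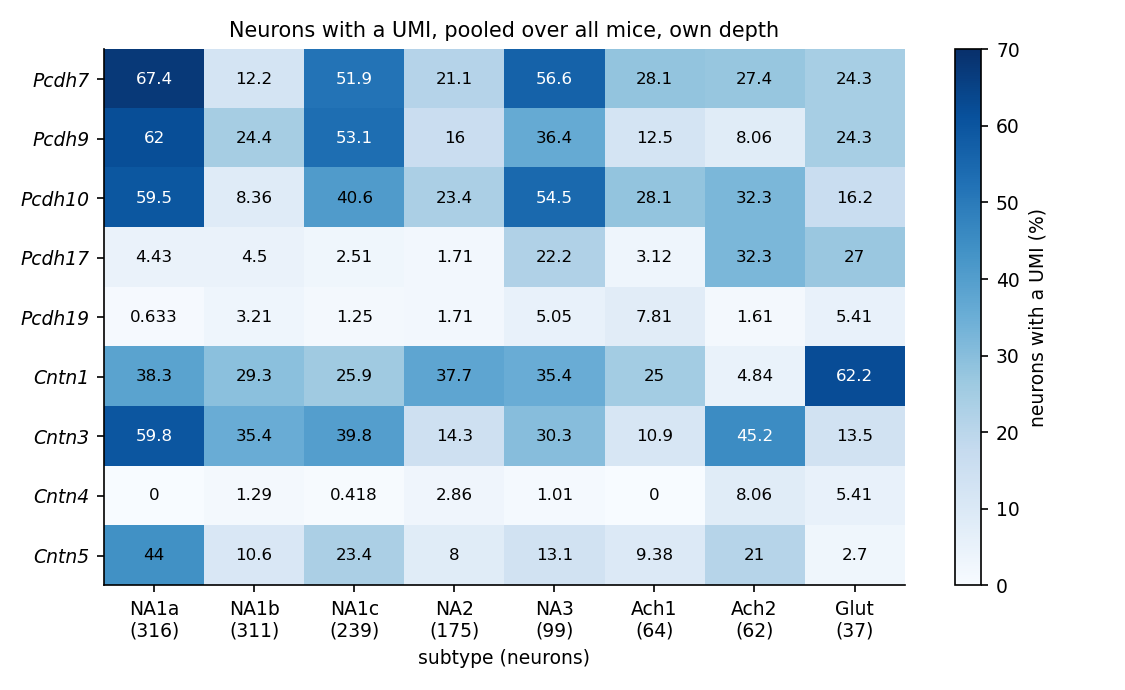
Neurons with a UMI (color and number, %) of the 9 genes (rows) in the 8 subtypes (columns, with the number of neurons), pooled over all mice at own depth. Cntn1 is highest in Glut (62.2%) and lowest in Ach2 (4.84%), Pcdh17 is highest in Ach2 (32.3%), and Pcdh19 and Cntn4 stay below 10% in every subtype.

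The other genes of these families were drawn from lists fixed by symbol, and since the authors formed the subtypes from the same neurons, their tests measure how steady a difference was over mice. Of 7 other non-clustered protocadherins, 1 (Pcdh1) had enough UMIs to be tested, and it did not pass among NA1a, NA1b and NA1c. The other contactins, Cntn2 and Cntn6, had too few UMIs. The 56 clustered protocadherins that were measured summed to 2.75 ± 0.506 UMIs per 10000 (SD, n = 5 mice) in NA1a, 2.77 ± 1.11 in NA1b and 2.34 ± 0.745 in NA1c, with no gap between NA1b and the others, and to 0.721 ± 0.370 in NA2 (0.974 ± 0.304 in 4 mice without shared barcodes).

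Of the contactin-associated proteins, which pair with contactins in the same membrane, 1 of 2 tested was higher in NA1a than in NA1b. Of all genes, 2.67% were higher and 1.47% lower. The 1 gene was Cntnap5a, at 2.30 ± 0.838 UMIs per 10000 (SD, n = 5 mice) in NA1a, 1.13 ± 0.185 in NA1b and 1.58 ± 0.504 in NA1c, with a log2 difference of 0.92 ± 0.27 (SE, limma adjusted p = 0.0443). It passed in 3 of 14 alternatives (adjusted p 0.00324 to 0.382), and leaving out any of the 5 mice ended the call. Cntnap5a and Cntnap2 were both lower in NA2 (log2 -1.49 and -0.91) and in NA3, where Cntnap5a fell by 1.67 and Cntnap2 fell by 1.00 on the log2 scale. These values are before subtracting the median gene (-0.26 in both), and 64.0% of all genes passed in NA2 and 27.8% in NA3. With profiles centred on their median gene, Cntnap2 passed in neither (limma adjusted p = 0.0571 in NA2 and 0.0732 in NA3). Without the neurons of shared barcodes the NA2 difference was -0.84 for Cntnap5a, which passed, and -0.29 for Cntnap2, which did not (limma adjusted p = 0.446). Of 9 contactin partners and 14 effectors or partners of protocadherins that were tested, 0 passed in any comparison among NA1a, NA1b and NA1c by limma. At an unadjusted p below 0.05 there were 0 to 2 of them per list and comparison. Their median log2 differences lay between -0.19 and 0.07, beside -0.01 to 0.01 over all genes. Of the classical cadherins, 1 of 2 tested passed between NA1a and NA1b and between NA1b and NA1c, against 4.14% and 1.54% of all genes. Cdh6, a type II cadherin, was at 1.12 ± 0.270 UMIs per 10000 in NA1a, 0.390 ± 0.165 in NA1b and 1.06 ± 0.240 in NA1c. Its log2 difference was 1.37 ± 0.33 (adjusted p = 0.00847) between NA1a and NA1b and -1.31 ± 0.33 (adjusted p = 0.0218) between NA1b and NA1c. The first of these calls held in 12 of 14 alternatives and the latter in 9 of 14, and neither passed in thinned neurons or without replicate 1.

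In NA2, 6 of 9 contactin partners (66.7%) and 8 of 14 protocadherin effectors (57.1%) passed, close to the 64.0% of all genes, so that nothing is read from these counts, and the values below are before subtracting the median gene. The partners were 5 lower and 1 higher, among them the L1 family genes Nfasc (log2 -1.06 ± 0.26) and L1cam (-0.94 ± 0.18) and the phosphatase Ptpra (-0.90 ± 0.20). Of the protocadherin effectors 4 were higher and 4 lower, among them Cyfip1 of the WAVE complex (-1.52 ± 0.32), the kinase Taok2 (-1.38 ± 0.30) and Dlg4 (-1.35 ± 0.27). Without shared barcodes 5 of 9 partners and 6 of 15 effectors passed, against 54.2% of all genes, and Taok2 was at -2.03, Nfasc at -1.54, L1cam at -0.71, Ptpra at -0.70, Cyfip1 at -1.27 and Dlg4 at -1.26. In NA3, 3 of 9 partners (33.3%) and 2 of 14 effectors (14.3%) passed, against 27.8% of all genes. In NA3, Nfasc (-2.18 ± 0.33) and Nrcam (-1.36 ± 0.23) were lower, and Ptprz1, a phosphatase that binds Cntn1 and is known from glia, was higher (3.78 ± 0.40), as was Cdh2 (1.26 ± 0.39). Cdh2 did not pass without replicate 2 (adjusted p = 0.065), without replicate 4 (adjusted p = 0.232) or in thinned neurons, where its difference was 0.59 (adjusted p = 0.478). The glial transcripts given above were also higher in NA3, and any relation of Ptprz1 and Cdh2 to them was not tested. Pcdh1 fell in NA2 (-1.98 ± 0.31, adjusted p = 1.03e-06).

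The genes whose levels were most like those of each fitted gene were named by Pearson's r of the log2 levels over the 23 profiles of mouse and subtype, which share mice and libraries, among 6185 genes. For Pcdh9 they were Rxfp1 (r = 0.951), a relaxin receptor, then Pcdh7 (0.905) and Ecel1 (0.903). For Pcdh7 they were Pcdh9 (0.905), Rxfp1 (0.905) and Sctr (0.854), the secretin receptor. For Pcdh10 they were Npy (0.823), the co-transmitter of noradrenergic neurons, Sctr (0.818) and Pcp4 (0.810). Cntn5 was most like Usp29 (0.841), Epha5 (0.839) and Prom1 (0.821), and Cntn3 most like Prune2 (0.920), Wdfy3 (0.900) and Zdhhc17 (0.894). Cntn1 stood apart from the other members, with r between -0.20 and 0.02 to each of them, and was most like Slc2a3 (0.817), the neuronal glucose transporter, Map1b (0.807) and Rtn3 (0.792).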

How the data were processed

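For 19224 genes in 1303 neurons, the authors deposited UMIs scaled to 10000 per neuron, with 1 added, on a natural log scale. The submitters' processing notes name Cell Ranger 2.1.1, Seurat, Scanpy and build mm10, and the subtype names are the authors' own. UMIs were recovered by dividing by each neuron's smallest step, and all nonzero values came out whole within 0.01. No doublet caller was run. The mean UMIs per 10000 of each mouse and subtype with at least 10 neurons gave 23 profiles (5 mice each in NA1a, NA1b, NA1c and NA2, and 3 in NA3). Genes that reached a mean of 0.5 in 3 or more profiles were fitted with limma 3.58.1 (R 4.3.3) on log2(mean + 0.1), with an intensity trend and a block for the mouse, and p-values were adjusted by the Benjamini-Hochberg method over 6185 genes with a threshold of 0.05. Levels and figures were computed in Python 3.11.15. The script was tested on simulated data.

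Profiles were paired by mouse because they come from the same animal (mean correlation of residuals within a mouse 0.0712, from -0.0775 to 0.232 over 42 pairs of profiles). The genes and gene lists were chosen with earlier results of these data known. All 9 genes were named, with up to 3 called genes of each list and comparison by the size of the log2 difference, and for each fitted gene the 3 genes with the highest Pearson correlation. Other settings tried were a pseudocount of 1, no filter, no block, profiles of 5 neurons, the NA1 subtypes alone, thinning to 2000 UMIs (813 of 1002 neurons kept), summed UMIs, centring, and leaving out each mouse. Leaving out neurons with shared barcodes, and the alternatives for genes of the lists, were chosen after seeing the data. A limit for a count of 0 is 3 neurons of the total.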

Additional observations from a re-analysis of the deposited data

Results flagged for a closer look

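Cntn3 in NA1a stood apart in 1 mouse. Replicate 5 had 3.645 UMIs per 10000, against 1.66 to 1.81 in the other 4 mice, and the gap to the nearest mouse was 0.923 of the whole range. It was the only such sample in 24 groups of a gene and a subtype that were examined, and chance alone gives about 1 in 20 groups.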

How the results depend on the processing

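Over 408 recomputed differences of the 6 fitted genes, none of the 15 that passed the threshold changed sign, 8 calls were lost and 11 gained, and 29 values moved by 1 SD or more. The number of genes past the threshold between NA1a and NA1b (256) was 421 with a pseudocount of 1, 161 with no filter, 586 with the NA1 subtypes alone and 83 in thinned neurons, and 102 to 207 when a mouse was left out, lowest without replicate 1. Between NA1a and NA1c (351) it was 167 with no filter, 805 with the NA1 subtypes alone, 119 in thinned neurons and 129 to 251 without a mouse, lowest without replicate 1. Between NA1b and NA1c (95) it was 148 with a pseudocount of 1, 185 with the NA1 subtypes alone, 51 in thinned neurons, 159 with summed UMIs and 61 to 136 without a mouse, lowest without replicate 4. In NA2 it was 3590 to 3843 and in NA3 1159 to 1673 without a mouse. The cause was not tested, other than that thinning and leaving out a mouse use fewer neurons. Centring moved the share of higher calls from 38.9% to 51.3% in NA2 and from 36.6% to 49.2% in NA3. Without the pairing by mouse (no replicate block) the counts were 180, 270, 78, 3868 and 1654 in the 5 comparisons. Without shared barcodes they were 234, 324, 93, 3349 and 1745. A fit with all mouse names was not run, since 3 names match no single sample. The named genes of the lists were recomputed after seeing the data. Of them, Pcdh1, Nfasc, L1cam, Ptpra, Cyfip1, Taok2 and Dlg4 in NA2, Ptprz1, Nfasc and Nrcam in NA3 and Cntnap5a in both passed in all 13 alternatives. Cntnap2 passed in 8 of 13 in each, and Dlg4 and Cdh2 in NA3 in 10 of 13.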

Other observations

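The 134 NA1a neurons of the unmatched mouse names had lower pooled levels of Pcdh7 than those of replicates 1 to 5, at 1.68 against 3.49 UMIs per 10000. Cntn5 had the opposite order, at 4.00 against 2.36. In NA1b, Cntn5 was at 1.28 in the 74 neurons of the unmatched names against 0.330 in replicates 1 to 5. The unmatched neurons carry 3 mouse names that match no single sample. Replicates 1 to 5 are all of batch 2, and the paper lists its other mice in batch 1. A batch can therefore not be told apart from these differences, which were not tested.

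When the NA1a neurons of each mouse were divided at their median level of Npy, Cntn3 was at 2.40 ± 0.866 UMIs per 10000 (SD, n = 5 mice) above it and 1.81 ± 0.955 at or below it, higher in 5 of 5 mice. Cntn1 was at 0.686 ± 0.351 above it and 0.979 ± 0.239 at or below it, higher in 0 of 5 mice. Neither held across subtypes, since Cntn1 in NA1b was at 1.22 ± 0.302 above and 0.732 ± 0.292 at or below the median, higher in 4 of 5 mice, and Cntn3 in NA1c was higher in 2 of 5. The NA1a values were picked from 27 combinations of gene and subtype after their values were seen. These neurons were divided by a measured value, and no test was run.

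GFP was found in 6 neurons and tdTomato in 20. Cntn5 was found in 1 neuron with GFP, with 20 UMIs, and in 1 neuron with tdTomato, with 1 UMI, which is too few to compare the targets.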
